A study of Mus musculus with 6 samples.

Results

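The genes of sterol and fatty acid synthesis that are targets or regulators of the SREBP transcription factors were followed in FLICs and in embryonic stem (ES) cells of the mouse. FLICs were differentiated from ES cells, and the labels do not spell out their name. The group was fixed as a list of 31 genes, matched by symbol, and all 31 were found among the 22600 genes of the count table. The 6 RNA-seq libraries form 4 groups: FLICs given OHT (hydroxytamoxifen, a tamoxifen metabolite) for 3 days, labelled TRF2-/- (n = 1); untreated FLICs, labelled wild-type (n = 1); ES cells given OHT for 3 days, labelled TRF2-/- (n = 2); and untreated ES cells, labelled wild-type (n = 2). All groups share a C57BL/6 background and 96 h of culture. TRF2, the product of Terf2, binds telomeres. OHT was never given to cells that kept TRF2, so an effect of OHT itself and an effect of that loss cannot be told apart. What drives the OHT-dependent loss of TRF2, and how FLICs were differentiated, is not given in the sources used here.

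SREBPs are membrane-bound transcription factors. When sterols are scarce, the escort protein SCAP carries them from the endoplasmic reticulum to the Golgi, where proteases release the active part; INSIG proteins hold SCAP back when sterols are plentiful. SREBP-2, from Srebf2, mainly drives cholesterol synthesis and SREBP-1, from Srebf1, mainly drives fatty acid synthesis and desaturation. Their targets are known to rise and fall together in many cell types.

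Total counts were 23534551 to 43965309 per library. Terf2 had 9 and 10 counts in OHT-treated ES cells, against 554 and 732 in untreated ES cells, and 5 counts in OHT-treated FLICs, against 268 in untreated FLICs, as the labels state. ES cell markers (8 genes, Pou5f1 and Nanog among them) summed to 60.1 CPM (read counts relative to the TMM-scaled library size) in OHT-treated and 102 CPM in untreated FLICs, against 3324 to 3849 CPM in the ES cell libraries, and Zfp42 had no count in FLICs. Of 10 fibroblast and mesenchymal markers, 8 were called higher and 2, Thy1 and Pdgfra, lower in untreated FLICs against untreated ES cells. Of 5 endoderm markers, 3 were called higher and 2 lower there. They summed to 93.1 CPM in OHT-treated and 93.9 CPM in untreated FLICs, against 2.37 to 4.74 CPM in ES cells. Of 7 neural and oligodendrocyte markers, 2 were called higher and 2 lower there, near the 26.2% and 28.7% of all tested genes. Their log2 fold changes there were negative for 4 of 7, with a median of -0.95. Their sums were 941 CPM and 822 CPM in OHT-treated and untreated FLICs, against 280 to 353 CPM in ES cells. Per kilobase of deposited gene length, however, these sums were 235 and 204, against 169 to 208 in ES cells. The 7 hepatocyte markers, of a tissue known for these pathways, summed to at most 1.33 CPM in FLICs. The 7 adipocyte markers summed to 46.3 CPM in OHT-treated and 26.1 CPM in untreated FLICs, mostly from Pparg at 36.4 CPM and 19.3 CPM, while Adipoq, the fat cell hormone gene, had 2 counts and 0 counts and Lep had none. The 2 OHT-treated ES cell libraries differed from each other more than the 2 untreated ones did (chi-square per degree of freedom 66.3, against 13.2).

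All 31 genes were expressed in every library, with 141 to 55595 counts each, and all passed the filter on low counts that left 15535 genes for testing. Together they took 0.658% of the counts in OHT-treated FLICs and 0.545% in untreated FLICs. In ES cells their share was 0.332% and 0.331% in the OHT-treated libraries, against 0.421% and 0.452% in the untreated ones. FLICs thus gave these genes a larger share than any ES cell library, and the 2 OHT-treated ES cell libraries gave them the smallest. On the scale of CPM per kilobase of the deposited gene length, the sum over the 31 genes was 4580 in OHT-treated and 3648 in untreated FLICs, and 1586 and 1599 in OHT-treated ES cells, against 2142 and 2159 in untreated ES cells. In bulk RNA, fewer cells expressing a gene and less RNA per cell cannot be told apart.

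Per kilobase, Scd2, a stearoyl-CoA desaturase, was the most abundant of the 31 in all 4 groups. It reached 827 CPM per kilobase in OHT-treated FLICs and 589 in untreated FLICs, and had means of 183 in OHT-treated and 276 in untreated ES cells. Hmgcs1, the HMG-CoA synthase that makes the mevalonate precursor, ranked 2 in FLICs and 3 in ES cells. The order below them differed between the cell types. Fasn, the fatty acid synthase, ranked 21 in OHT-treated and 20 in untreated FLICs but 4 in both ES cell groups, and Acly, which makes cytosolic acetyl-CoA from citrate, ranked 11 in both FLICs libraries but 2 in ES cells. Cyp51, the lanosterol demethylase, ranked 3 in both FLICs libraries, against 10 in OHT-treated and 12 in untreated ES cells, and Msmo1, the methylsterol monooxygenase, ranked 4 in FLICs and 15 in ES cells. Tm7sf2, a sterol reductase, was lowest in all groups, at 5.77 and 4.85 CPM per kilobase in OHT-treated and untreated FLICs, and 1.54 and 2.53 in OHT-treated and untreated ES cells. That rank depends on its deposited length of 3656 bases. By CPM it was still lowest in both FLICs libraries. In untreated ES cells, however, Hsd17b7, at 5.56 and 5.70 CPM, lay below Tm7sf2, at 9.73 and 8.76 CPM. At the top, Fasn lay above Scd2 by CPM in ES cells. Their means were 784 and 196 CPM with OHT, and 1433 and 297 CPM untreated. Reads of Tm7sf2 cannot be told apart here from those of the overlapping gene Vps51, which was listed at 0.0392 to 0.772 CPM, since the strand setting of the counting is not given in the sources used here. The same limit holds for Fdft1 with Ctsb (80.1 to 240 CPM), Cyp51 with Akap9 (63.9 to 108 CPM) and Srebf1 with Rai1 (13.95 to 155 CPM). Mvd and Fdps overlap the gene models Gm20388 and Gm43738.

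**Figure D1:**
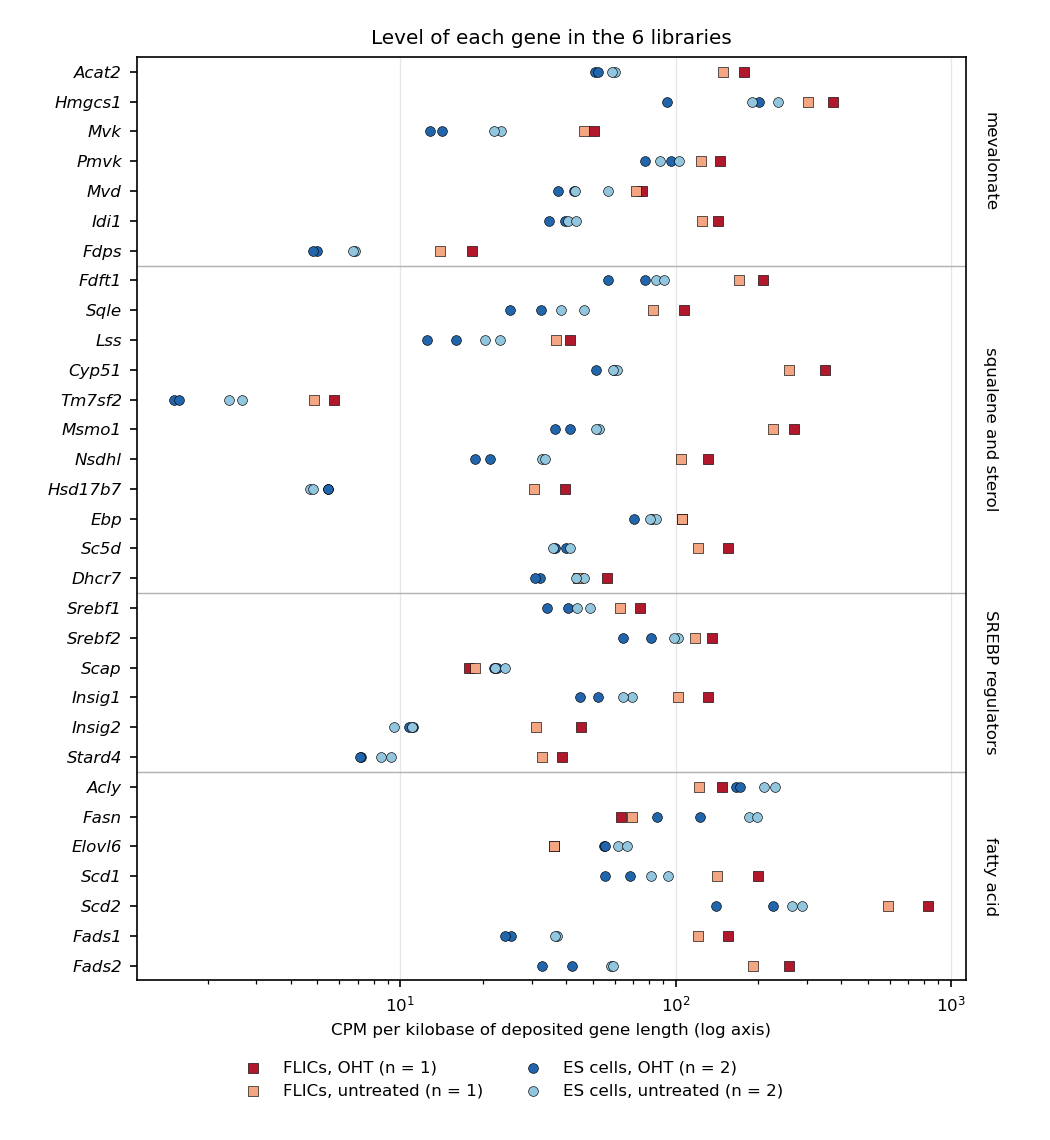
Level of each of the 31 genes in the 6 libraries, as CPM per kilobase of deposited gene length on a log axis, ordered by arm of the pathway. Squares are FLICs (1 library each for OHT and untreated), circles are ES cells (2 libraries each); most genes lie highest in FLICs, whereas Fasn, Acly, Elovl6 and Scap lie lower in both FLICs libraries than in all ES cell libraries.

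Because SREBPs act through gene promoters, together with the factor NF-Y, the 250 bases before the RefSeq gene start (GRCm38.p6) are shown for 3 of the genes: Hmgcs1, the only one of 24 searched with a match to the sterol response element core, and Mvk and Fasn, which were among the genes with the smallest p for OHT in ES cells and held 5 and 3 NF-Y boxes. Each is written 5′ to 3′ on the strand of its gene. Capitals mark the sterol response element core and the NF-Y box, whose reverse complement reads ATTGG.
Hmgcs1 (chr13:119690101-119690350, plus strand): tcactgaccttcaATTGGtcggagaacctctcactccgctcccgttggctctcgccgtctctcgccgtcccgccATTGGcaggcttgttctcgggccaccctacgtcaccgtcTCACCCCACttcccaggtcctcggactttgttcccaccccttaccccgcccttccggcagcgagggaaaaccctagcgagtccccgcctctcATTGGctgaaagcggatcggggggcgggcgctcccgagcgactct
Mvk (chr5:114444019-114444268, plus strand): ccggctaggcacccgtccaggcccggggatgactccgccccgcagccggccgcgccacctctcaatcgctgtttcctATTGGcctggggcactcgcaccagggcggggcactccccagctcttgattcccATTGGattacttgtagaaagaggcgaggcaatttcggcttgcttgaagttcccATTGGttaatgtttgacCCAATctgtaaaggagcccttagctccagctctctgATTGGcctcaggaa
Fasn (chr11:120824548-120824797, minus strand): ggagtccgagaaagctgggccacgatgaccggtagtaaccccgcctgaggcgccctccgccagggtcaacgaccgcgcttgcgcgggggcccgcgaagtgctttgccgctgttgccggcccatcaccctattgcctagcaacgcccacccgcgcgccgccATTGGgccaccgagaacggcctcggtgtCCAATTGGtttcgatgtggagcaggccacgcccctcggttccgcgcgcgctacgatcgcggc
In the Fasn window the last of the boxes overlaps the one before it.

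Promoter windows from 250 bases before to 50 bases after the gene start were at hand for 24 of the 31 genes, in 32 windows. The NF-Y box CCAAT, on either strand, was in a window of 20 of these 24 genes (83.3%), against 43.0% of the tested genes with a window and 41.1% of all genes with one. The GC box GGGCGG, the site type of Sp1, was in 21 of 24 (87.5%), against 65.2% of tested genes and 38.2% of all. The E-box CANNTG was in 17 of 24 (70.8%), against 68.7% of tested genes and 75.0% of all. The sterol response element core TCACNCCAC was found in 1 of 24 (4.17%), against 1.43% of tested genes and 1.44% of all. An NF-Y box followed by TG also holds an E-box, as in CCAATTG, so those counts share bases in places, and a match describes the letters of the window alone. In Hmgcs1 the core lay 137 to 129 bases before the start.

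In ES cells given OHT, most of the 31 genes stood below their level in untreated ES cells, by small amounts. In the edgeR quasi-likelihood fit with Benjamini-Hochberg adjustment, 0 of 31 were called at an adjusted p of 0.05 in either direction, where 0.521% of all tested genes were called higher and 0.0129% lower. At an unadjusted p of 0.05, 15 genes were lower and 0 were higher, against 7.79% of all tested genes lower and 10.5% higher. DESeq2 called 3 of the 31 lower (Mvk, Nsdhl and Fasn) and 0 higher, against 0.554% of all genes lower and 1.83% higher. The log2 fold change was negative for 29 of 31 genes, with a median of -0.42, against -0.01 over all tested genes, 50.7% of which were negative. The count of negative values was 28 with relative log expression scaling, 27 with upper quartile scaling and 24 with total counts, which put the median of all genes at 0.13.

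The CPM of both OHT-treated ES cell libraries lay below that of both untreated ones for 23 of the 31 genes and above for 1, Hsd17b7. Over all tested genes, 27.6% lay below and 25.2% above in this way. The other 7 genes, Hmgcs1, Pmvk, Cyp51, Ebp, Sc5d, Insig2 and Scap, overlapped between the groups. Paired by replicate number, the OHT library was lower in both pairs for 26 of 31 genes, on the log2(CPM + 1) scale. The share of all genes lower in both pairs was not determined. Taken 1 pair at a time, 60.6% of genes that averaged 1 CPM or more were lower in replicate 1 and 54.7% in replicate 2. The median difference over the 31 genes was -0.40 in replicate 1 and -0.37 in replicate 2, against -0.08 and -0.05 over all genes that averaged 1 CPM or more.

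In the mevalonate arm, the steps up to farnesyl diphosphate, 0 of 7 genes were called and the median log2 fold change was -0.32, or -0.18 without OHT replicate 1. Mvk, mevalonate kinase, had the smallest p of the 31. It was at 18.5 and 20.5 CPM in OHT-treated ES cells, against 33.5 and 31.7 CPM in untreated ES cells. Both OHT libraries lay below both untreated ones, with a log2 fold change of -0.74 ± 0.14 (SE) and an edgeR adjusted p of 0.0982. Hmgcs1 varied most between libraries: it was at 145 and 314 CPM in OHT-treated ES cells, against 296 and 368 CPM in untreated ES cells (log2 fold change -0.53 ± 0.36, edgeR adjusted p = 0.467). Its first OHT library was the low one, and its second lay between the untreated values. The other 5 genes, Acat2, Pmvk, Mvd, Idi1 and Fdps, had log2 fold changes of -0.47 to -0.14.

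In the squalene and sterol arm, from squalene synthase to cholesterol, 0 of 11 genes were called, 10 had negative log2 fold changes and the median was -0.42. Nsdhl, a dehydrogenase that helps to remove methyl groups from lanosterol, was at 20.3 and 23.0 CPM in OHT-treated ES cells, against 35.6 and 36.3 CPM in untreated ES cells. The groups did not overlap (log2 fold change -0.73 ± 0.14, edgeR adjusted p = 0.100). Tm7sf2 was at 5.52 and 5.76 CPM in OHT-treated ES cells, against 9.73 and 8.76 CPM in untreated ES cells (-0.71 ± 0.17, edgeR adjusted p = 0.149). Dhcr7, the reductase of the final step to cholesterol in 1 branch of the pathway, was at 45.7 and 43.9 CPM in OHT-treated ES cells, against 66.0 and 61.8 CPM in untreated ES cells (-0.51 ± 0.13, edgeR adjusted p = 0.151). Hsd17b7, the ketosteroid reductase that works beside Nsdhl, differed in sign from that group: it was at 6.49 and 6.47 CPM in OHT-treated ES cells, against 5.56 and 5.70 CPM in untreated ES cells (0.20 ± 0.16, edgeR adjusted p = 0.514). Of the other genes, Fdft1, Sqle, Lss and Msmo1 had log2 fold changes of -0.61 to -0.39, and Cyp51, Ebp and Sc5d of -0.12 to -0.02.

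In the fatty acid arm 0 of 7 genes were called, all 7 had negative log2 fold changes, and the median was -0.57. It was -0.37 without OHT replicate 2, where the squalene and sterol arm was at -0.41. Fasn had the most negative value of the 31. It was at 925 and 643 CPM in OHT-treated ES cells, against 1386 and 1480 CPM in untreated ES cells, with no overlap but a wide gap between the 2 OHT libraries (log2 fold change -0.87 ± 0.21, edgeR adjusted p = 0.149, DESeq2 adjusted p = 0.0125). Fads1, a desaturase of polyunsaturated fatty acids, was at 34.0 and 32.3 CPM in OHT-treated ES cells, against 49.8 and 48.8 CPM in untreated ES cells (-0.57 ± 0.13, edgeR adjusted p = 0.134). Fads1 (chr19:10182888-10196877, plus strand, GRCm38) and Fads2 (chr19:10062765-10101746, minus strand) are neighbours. Fads2, the desaturase that acts before it, was at 43.5 and 55.8 CPM in OHT-treated ES cells, against 77.7 and 78.6 CPM in untreated ES cells (-0.65 ± 0.17, edgeR adjusted p = 0.154). Scd2 was at 242 and 151 CPM in OHT-treated ES cells, against 309 and 285 CPM in untreated ES cells (-0.60 ± 0.24, edgeR adjusted p = 0.275), and Scd1 was at 68.6 and 55.6 CPM per kilobase, against 93.9 and 81.1 (-0.50 ± 0.17, edgeR adjusted p = 0.217). All 4 desaturases thus lay lower in both OHT libraries, without a call. Acly had -0.39 ± 0.14 (edgeR adjusted p = 0.243). Elovl6, which elongates palmitate, had the value closest to 0 in this arm, -0.22 ± 0.13 (edgeR adjusted p = 0.409).

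Among the SREBP genes, their regulators and the sterol carrier gene Stard4, 0 of 6 were called and the median log2 fold change was -0.31, or -0.20 without OHT replicate 2. Srebf2 was at 285 and 224 CPM in OHT-treated ES cells, against 355 and 343 CPM in untreated ES cells, and did not overlap (-0.46 ± 0.17, edgeR adjusted p = 0.246). Insig1, itself a target of SREBPs, was at 34.9 and 40.5 CPM in OHT-treated ES cells, against 53.8 and 50.1 CPM in untreated ES cells (-0.46 ± 0.14, edgeR adjusted p = 0.193). Srebf1 was at 139 and 116 CPM in OHT-treated ES cells, against 168 and 150 CPM in untreated ES cells (-0.31 ± 0.16, edgeR adjusted p = 0.345). Both SREBP genes and Insig1 lay lower with OHT, whereas Insig2 and Scap overlapped. Insig2 was at 7.52 and 7.25 CPM in OHT-treated ES cells, against 6.42 and 7.43 CPM in untreated ES cells (0.09 ± 0.17, edgeR adjusted p = 0.807). Scap was at 84.1 and 86.2 CPM in OHT-treated ES cells, against 84.7 and 92.2 CPM in untreated ES cells, and overlapped between the groups (-0.06 ± 0.13, edgeR adjusted p = 0.850).

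The spread between the OHT-treated ES cell libraries bears on these counts. On log2(CPM + 1), 1 of the 31 genes differed by at least 2-fold between them, Hmgcs1, which was higher in replicate 2 by 1.11; of all genes that averaged 1 CPM or more, 3.32% were at least 2-fold higher and 0.386% lower in replicate 2. Scd2 and Fasn differed the other way, by -0.68 and -0.52. Without OHT replicate 1 the edgeR fit called 18 of the 31 genes lower, and without OHT replicate 2 it called 14. Calls over all tested genes grew as well, to 20.3% lower and 19.9% higher without OHT replicate 1, and to 13.9% lower and 14.9% higher without OHT replicate 2. Without either untreated library, 0 of the 31 were called lower, as were 0.00645% of all tested genes. In each of these fits the lone library is assumed to vary like the other pairs. ES cell markers summed to 3324 and 3625 CPM in OHT-treated ES cells, against 3703 and 3849 CPM in untreated ES cells. Of these 8 genes, 5 had negative log2 fold changes and 3 positive ones, with a median of -0.27. At an unadjusted p of 0.05 in edgeR, 3 were lower and 0 higher. After adjustment edgeR called 0 of them and DESeq2 called 2 lower. The 10 fibroblast and mesenchymal markers summed to 1780 and 1139 CPM, against 1895 and 1942 CPM. That second sum was mostly Fn1, at 1763 and 1115 CPM in OHT-treated ES cells, against 1884 and 1930 CPM in untreated ES cells; the other 9 markers had positive log2 fold changes, with a median of 0.95 over the 10, 3 higher at an unadjusted p of 0.05, 0 called by edgeR and 2 called higher by DESeq2. Of 5 endoderm markers, 4 had positive values (median 1.14, 3 higher at an unadjusted p of 0.05, 0 called by edgeR, 1 by DESeq2), at summed levels of 4.74 and 3.69 CPM with OHT, against 2.48 and 2.37 CPM untreated. The part of these markers in the result was not tested.

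In FLICs the 31 genes mostly stood higher with OHT than without, again by small amounts. With 1 library per condition there is no test, and 0 of 31 genes differed by 2-fold or more, where 0.424% of the 11789 genes that averaged 1 CPM or more were higher and 0.102% lower by that much. The difference in log2(CPM + 1) was positive for 29 of the 31 genes, and for 27 with relative log expression or total count scaling. Its median was 0.27, against 0.03 over all genes, 56.4% of which were positive. The values ran from -0.14 for Fasn upwards, and the range from percentile 5 to percentile 95 of all genes was -0.32 to 0.505. Of the 31 genes, only Insig2 (0.515) lay outside that range.

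By arm, the median difference in FLICs was 0.24 for the mevalonate arm, 0.33 for the squalene and sterol arm, 0.24 for the SREBP genes and regulators and 0.36 for the fatty acid arm. Insig2, an SREBP retention factor known to be less dependent on SREBPs than Insig1, was at 30.5 CPM in OHT-treated FLICs and 21.1 CPM in untreated FLICs. Scd2 was at 889 CPM in OHT-treated FLICs and 632 CPM in untreated FLICs, a difference of 0.49, and Scd1, which catalyses the same reaction, was at 212 and 151 CPM, a difference of 0.48. Fads2 was at 345 CPM in OHT-treated and 255 CPM in untreated FLICs, and Cyp51 at 525 and 389 CPM, both differences of 0.43. Insig1 was at 102 CPM in OHT-treated and 79.5 CPM in untreated FLICs, Srebf1 at 254 and 215 CPM, and Srebf2 at 472 and 409 CPM. Fasn and Scap, the 2 genes with negative values, were at 474 and 68.0 CPM in OHT-treated FLICs, against 523 and 71.3 CPM in untreated FLICs. Fasn and Scap therefore did not share the direction of the rest. Summed fibroblast and mesenchymal markers were also higher, at 18101 CPM in OHT-treated and 13033 CPM in untreated FLICs, ES cell markers were lower, at 60.1 and 102 CPM, and adipocyte markers were higher, at 46.3 and 26.1 CPM. Their part in the result was not tested.

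**Figure D2:**
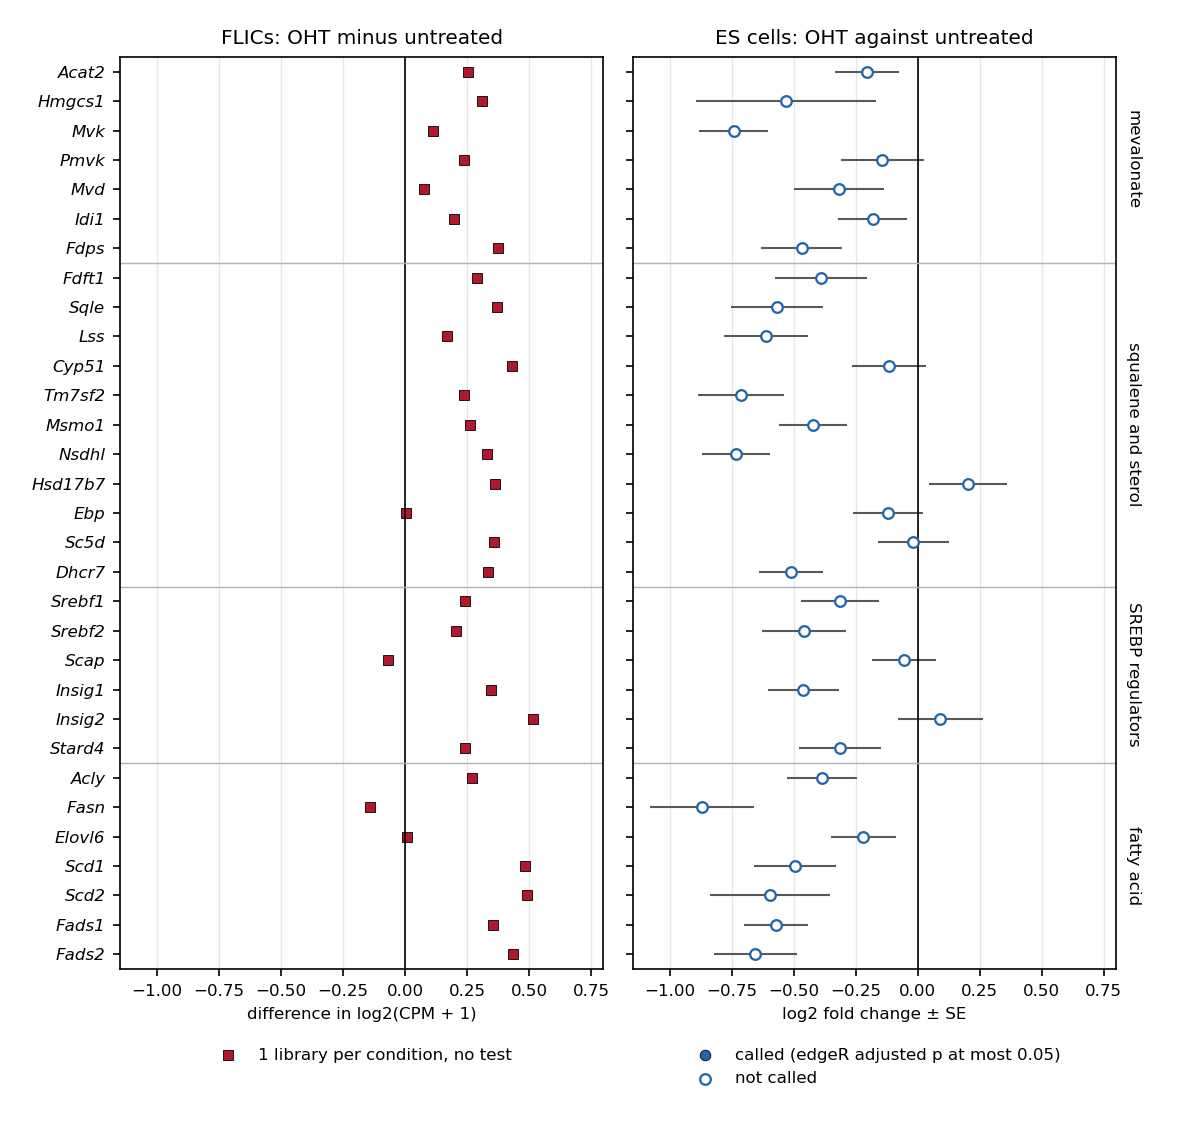
Difference between OHT-treated and untreated cells for each of the 31 genes. Left, FLICs, difference in log2(CPM + 1) with 1 library per condition; right, ES cells, log2 fold change ± SE from the edgeR fit with 2 libraries per condition. Of the 31 values, 29 are positive in FLICs and 29 are negative in ES cells, where open circles mark genes not called.

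The opposite signs were tested gene by gene as an interaction (the log2 fold change in FLICs minus that in ES cells), with the lone FLICs libraries assumed to vary like the ES cell ones. In edgeR 0 of the 31 genes were called in either direction, and so were 0% of all tested genes. At an unadjusted p of 0.05, 14 of the 31 were higher in FLICs and 0 lower, against 3.57% of all tested genes higher and 3.23% lower. DESeq2 called 0 of the 31, against 0.00644% of all genes higher and 0.122% lower. The interaction was positive for 30 of the 31 genes, with a median of 0.68, against 0.07 over all genes. Without either OHT-treated ES cell library, edgeR called 18 of the 31 genes higher and 0 lower; over all tested genes it then called 11.7% higher and 6.54% lower without replicate 1, and 8.55% and 4.87% without replicate 2. Without either untreated library it called 0 of the 31.

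Nsdhl had the smallest p, with an interaction of 1.07 ± 0.23 (edgeR adjusted p = 0.638). It was at 143 CPM in OHT-treated FLICs and 113 CPM in untreated FLICs, opposite in sign to its ES cell values given above. Fads1 had 0.93 ± 0.22, with 208 CPM in OHT-treated and 162 CPM in untreated FLICs, and Fads2 had the largest value, 1.09 ± 0.29, both with an edgeR adjusted p of 0.638. Dhcr7 had 0.85 ± 0.22 (edgeR adjusted p = 0.638), with 79.8 CPM in OHT-treated and 63.1 CPM in untreated FLICs. Mvk had 0.86 ± 0.24 (edgeR adjusted p = 0.639), with 72.8 CPM in OHT-treated and 67.2 CPM in untreated FLICs, so its interaction came mostly from ES cells. Scap, at -0.01 ± 0.23, was the only gene below 0. The interaction shares its ES cell libraries with the comparison of OHT in ES cells and is not separate evidence.

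Most sterol synthesis genes and all 4 desaturases were higher in FLICs than in ES cells, while Fasn, Acly and Elovl6 were not. With OHT, 26 of the 31 genes were called higher in FLICs and 1 lower, against 28.4% of all tested genes higher and 29.3% lower (edgeR adjusted p at most 0.05). Untreated, 20 were called higher and 3 lower, against 26.2% of all tested genes higher and 28.7% lower. All 20 of these were also higher with OHT, and 6 more were called higher only with OHT: Dhcr7, Hmgcs1, Mvd, Pmvk, Srebf1 and Srebf2. The median log2 fold change was 1.77 with OHT and 0.95 untreated, against -0.07 and -0.11 over all tested genes. Ebp, the sterol isomerase, and Scap were called in neither condition. Whether the 2 conditions differ is the interaction already given, which called no gene. Without untreated ES cell replicate 1, 12 genes were called higher and 1 lower in the untreated comparison, and without replicate 2, 13 and 1; Fasn was the lower one both times. Over all tested genes those fits called 16.2% higher and 18.5% lower, and 16.4% and 18.4%.

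The squalene and sterol arm held the largest values. Called higher were 10 of 11 genes with OHT and 9 of 11 untreated. Hsd17b7 was at 46.8 CPM in OHT-treated FLICs, against 6.49 and 6.47 CPM in OHT-treated ES cells, and at 36.2 CPM in untreated FLICs, against 5.56 and 5.70 CPM in untreated ES cells. Its log2 fold change was 2.85 ± 0.18 with OHT (edgeR adjusted p = 0.000124) and 2.69 ± 0.18 untreated (edgeR adjusted p = 0.000153). Msmo1 was at 237 CPM in OHT-treated FLICs, against 36.3 and 32.2 CPM in OHT-treated ES cells, and at 198 CPM in untreated FLICs, against 46.4 and 45.4 CPM in untreated ES cells. These are log2 fold changes of 2.79 ± 0.16 with OHT and 2.11 ± 0.16 untreated (edgeR adjusted p = 0.000105 and 0.000241). Cyp51 was at 525 CPM in OHT-treated FLICs, against 77.6 and 90.3 CPM in OHT-treated ES cells, and at 389 CPM in untreated FLICs, against 92.6 and 89.1 CPM in untreated ES cells (log2 fold change 2.65 ± 0.17 with OHT and 2.10 ± 0.17 untreated, edgeR adjusted p = 0.000145 and 0.000314). Nsdhl, with the FLICs and ES cell values given above, had 2.72 ± 0.16 with OHT (edgeR adjusted p = 0.00011). Msmo1, Nsdhl and Hsd17b7, which work together on the sterol ring, were thus all called higher in both conditions. Dhcr7, by contrast, had -0.02 ± 0.16 untreated (edgeR adjusted p = 0.931) and 0.83 ± 0.15 with OHT (edgeR adjusted p = 0.00565). The other called genes of the arm, Fdft1, Sqle, Lss, Tm7sf2 and Sc5d, which build squalene, close the ring and finish the sterol, had log2 fold changes of 1.55 to 2.03 with OHT and 0.76 to 1.65 untreated.

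In the mevalonate arm all 7 genes were called higher with OHT and 4 of 7 untreated (Acat2, Mvk, Idi1 and Fdps), with medians of 1.77 and 1.04. Idi1, the isopentenyl diphosphate isomerase, had the largest values, 1.94 ± 0.16 with OHT and 1.56 ± 0.16 untreated (edgeR adjusted p = 0.000325 and 0.000724). Pmvk, phosphomevalonate kinase, had the smallest, 0.75 ± 0.20 with OHT and 0.37 ± 0.20 untreated (edgeR adjusted p = 0.0222 and 0.172). The value of Acat2, a cytosolic thiolase, is uncertain, since its near copy Acat3 has the same deposited length of 1191 bases and was at 124 CPM in OHT-treated and 106 CPM in untreated FLICs, against 42.1 to 47.2 CPM in ES cells.

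In the fatty acid arm desaturases and chain synthesis differed in direction. The desaturases Scd1, Scd2, Fads1 and Fads2 were all called higher in both conditions, with log2 fold changes of 1.68 to 2.80 with OHT and 0.70 to 1.72 untreated. Fads2 was at 345 CPM in OHT-treated FLICs, against 43.5 and 55.8 CPM in OHT-treated ES cells (2.80 ± 0.20, edgeR adjusted p = 0.000181), and at 255 CPM in untreated FLICs, against 77.7 and 78.6 CPM in untreated ES cells (1.71 ± 0.20, edgeR adjusted p = 0.00104). Fads1 had 2.65 ± 0.15 with OHT and 1.72 ± 0.15 untreated (edgeR adjusted p = 0.000102 and 0.000382). Fasn, Acly and Elovl6, which make and lengthen the saturated chain, were the 3 genes called lower in untreated FLICs.

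Fasn was at 474 CPM in OHT-treated FLICs, against 925 and 643 CPM in OHT-treated ES cells, and was not called by edgeR (log2 fold change -0.73 ± 0.26, adjusted p = 0.0568), whereas DESeq2 called it lower (adjusted p = 0.0101). Untreated, it was at 523 CPM in FLICs, against 1386 and 1480 CPM in ES cells, and was called lower (-1.45 ± 0.27, edgeR adjusted p = 0.00645). Acly was at 487 CPM in OHT-treated FLICs, against 550 and 568 CPM in OHT-treated ES cells (-0.20 ± 0.18, edgeR adjusted p = 0.364), and at 404 CPM in untreated FLICs, against 697 and 764 CPM in untreated ES cells (-0.85 ± 0.18, edgeR adjusted p = 0.00985). Both genes thus lay below every ES cell library of their condition. Only Elovl6 was called lower in both conditions by edgeR: it was at 29.0 CPM in OHT-treated FLICs, against 43.8 and 44.2 CPM in OHT-treated ES cells, and at 28.9 CPM in untreated FLICs, against 49.4 and 53.2 CPM in untreated ES cells. Its log2 fold changes were -0.60 ± 0.16 with OHT and -0.83 ± 0.17 untreated (edgeR adjusted p = 0.0232 and 0.00825), and it was not called with OHT when either untreated ES cell library was left out.

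Among the SREBP genes and regulators, 5 of 6 were called higher with OHT and 3 of 6 untreated (Insig1, Insig2 and Stard4). Stard4, which moves sterols between membranes, was at 30.1 CPM in OHT-treated FLICs, against 5.62 and 5.53 CPM in OHT-treated ES cells, and at 25.3 CPM in untreated FLICs, against 6.62 and 7.21 CPM in untreated ES cells. Its log2 fold changes of 2.43 ± 0.19 and 1.87 ± 0.19 were the largest of the 6 (edgeR adjusted p = 0.000253 and 0.000639). Srebf2 had 0.89 ± 0.20 with OHT and 0.23 ± 0.21 untreated (edgeR adjusted p = 0.012 and 0.375), and Srebf1 had 0.99 ± 0.19 and 0.43 ± 0.19 (edgeR adjusted p = 0.00636 and 0.0996). The SREBP genes themselves thus differed between the cell types by less than most of the 31 genes.

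**Figure D3:**
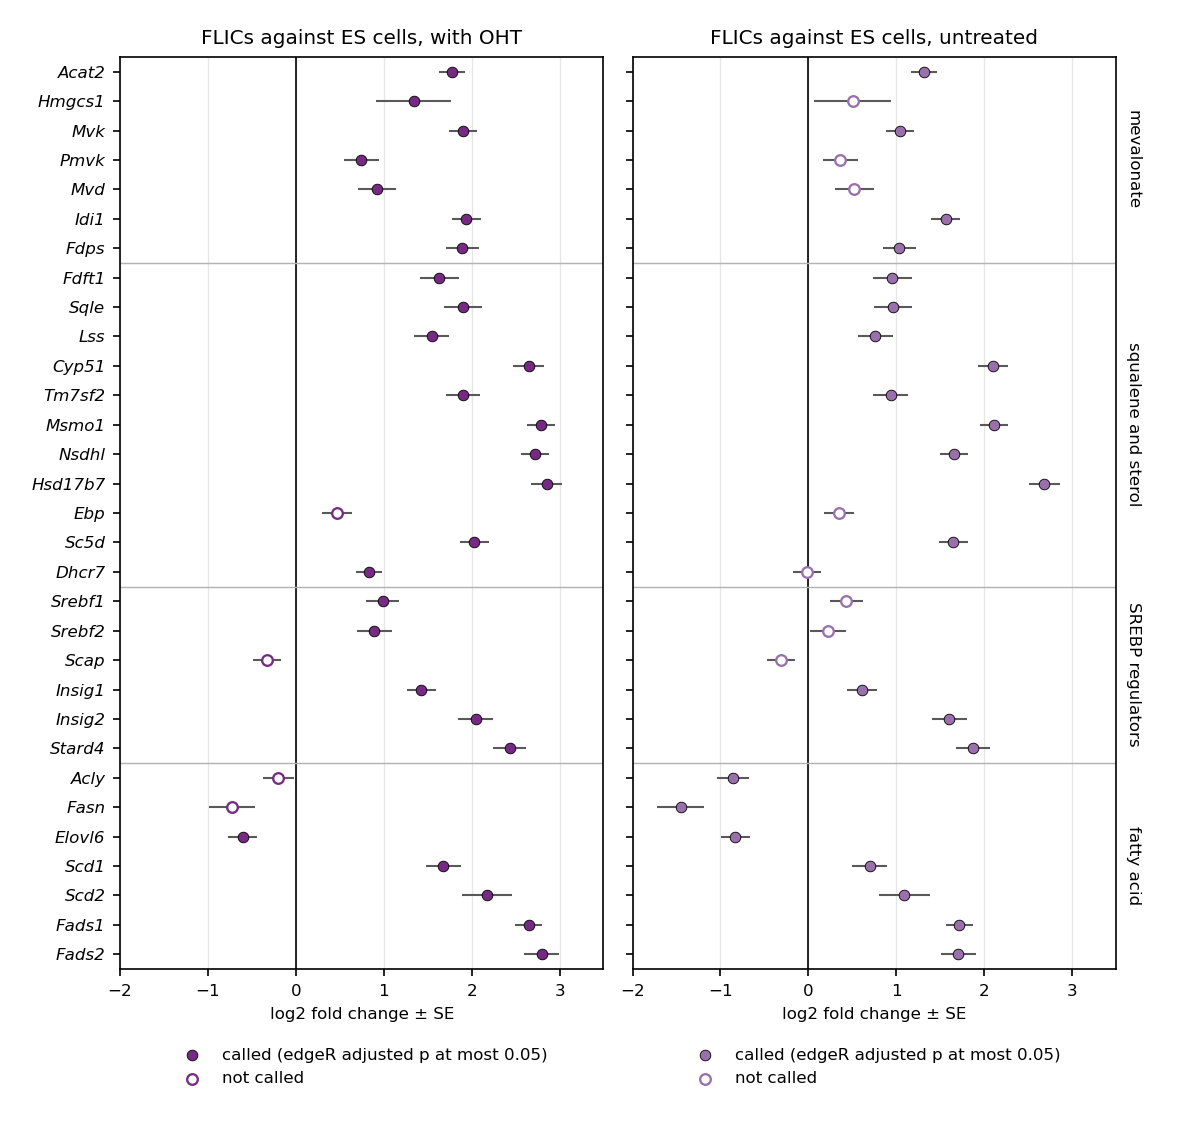
Log2 fold change ± SE of each of the 31 genes in FLICs against ES cells from the edgeR fit, with OHT on the left and untreated on the right; each comparison sets 1 FLICs library against 2 ES cell libraries. Filled circles mark the called genes, 27 with OHT and 23 untreated, and the squalene and sterol arm reaches 2.85 and 2.69, whereas Fasn, Acly, Elovl6 and Scap lie below 0 on both sides.

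Each library's balance within a pair was read per kilobase of deposited length, so each share depends on those lengths. Scd1 made up 19.4% of the summed Scd1 and Scd2 level in both FLICs libraries, and 23.3% and 28.4% in OHT-treated, against 24.6% and 23.4% in untreated ES cells. Scd2 was the larger of the 2 in every library, and FLICs had the smallest Scd1 share. These genes lie in a cluster with Scd3 and Scd4, and how shared reads were assigned is not given in the sources used here; Scd3, at 11.9 and 8.66 CPM in OHT-treated ES cells, against 4.87 and 4.76 CPM in untreated ES cells, stood on the other side of 0 from Scd1 and Scd2. Insig1 made up 74.3% and 76.6% of the INSIG pair in OHT-treated and untreated FLICs, and 80.1% and 82.9% in OHT-treated, against 87.9% and 85.4% in untreated ES cells. FLICs, OHT-treated ES cells and untreated ES cells did not overlap in that share.

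Srebf1 made up 35.4% and 34.9% of the SREBP pair in OHT-treated and untreated FLICs, and 33.3% and 34.7% in OHT-treated, against 32.5% and 30.9% in untreated ES cells, so Srebf2 gave about the same majority in all 6 libraries. Fads1 made up 37.4% and 38.7% of the FADS pair in OHT-treated and untreated FLICs, and 43.7% and 36.5% in OHT-treated, against 38.9% and 38.1% in untreated ES cells. The FLICs and untreated ES cell shares lay within the spread of the OHT-treated ES cell libraries.

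**Figure D4:**
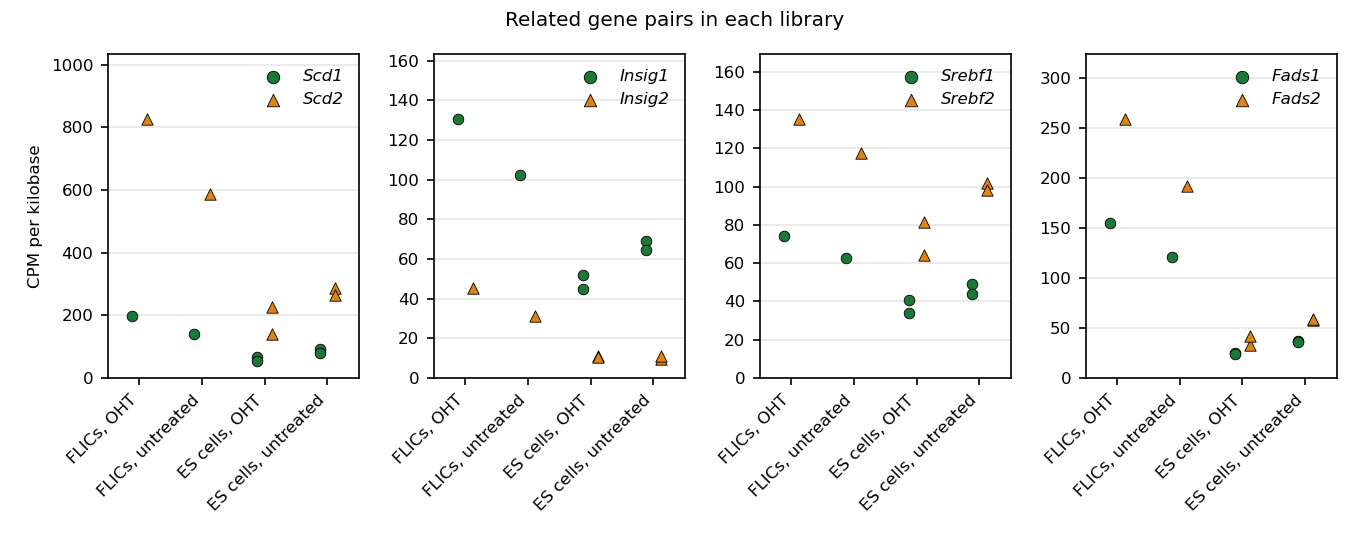
CPM per kilobase of both genes of 4 related pairs in each of the 6 libraries (circles for the first named, triangles for the second), on linear axes from 0. Scd2 exceeds Scd1, Srebf2 exceeds Srebf1 and Fads2 exceeds Fads1 in every library, while Insig1 exceeds Insig2, which lies at 31.2 or more in FLICs and at 11.1 or less in ES cells.

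Among sterol and isoprenoid genes outside the list, Dhdds, which makes dolichol precursors, was called higher in FLICs than in ES cells with OHT. It was at 22.9 CPM in OHT-treated FLICs, against 6.27 and 9.17 CPM in OHT-treated ES cells (log2 fold change 1.57 ± 0.26, edgeR adjusted p = 0.00403).

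Of 22 further fatty acid genes, 8 were called higher and 3 lower in FLICs with OHT, and 6 higher and 4 lower untreated. Over all tested genes the shares were 28.4% and 29.3% with OHT and 26.2% and 28.7% untreated, so the untreated count of higher genes was near that of all genes. Mid1ip1, which promotes polymerisation of acetyl-CoA carboxylase, had 3.30 ± 0.23 with OHT and 2.62 ± 0.22 untreated, and Acacb, the mitochondrial acetyl-CoA carboxylase, had -3.02 ± 0.33 and -4.42 ± 0.37 (edgeR adjusted p = 0.000167, 0.000342, 0.000854 and 0.000327). Acaca, the other acetyl-CoA carboxylase gene, was at 52.1 CPM in OHT-treated FLICs, between the 55.4 and 39.2 CPM of OHT-treated ES cells. Untreated, it was at 56.1 CPM in FLICs, against 68.4 and 74.0 CPM in ES cells. Pnpla3, a lipid droplet protein gene, had -4.24 ± 0.54 with OHT and -3.97 ± 0.56 untreated (edgeR adjusted p = 0.00144 and 0.00227). Thrsp, related to Mid1ip1, had no count in either FLICs library, against 1.47 and 1.33 CPM in OHT-treated and 1.26 and 1.22 CPM in untreated ES cells, which is at least 20.5-fold lower with OHT and at least 13.4-fold lower untreated when FLICs are set at a floor of 3 counts.

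Among genes for SREBP processing and sterol-regulated degradation, Erlin1 and Syvn1, which act in degradation at the endoplasmic reticulum, were called higher in FLICs in both conditions. Erlin1 had log2 fold changes of 1.19 ± 0.16 with OHT and 1.33 ± 0.16 untreated, and Syvn1 had 0.92 ± 0.17 and 0.70 ± 0.17 (edgeR adjusted p = 0.00159, 0.0011, 0.00521 and 0.0149). Of 11 genes of LXR signalling and sterol efflux or storage, 4 were called higher and 5 lower with OHT, and 3 higher and 5 lower untreated, beside the same shares of all genes; 3 of 11 is near the 26.2% called higher among all genes. The cholesterol exporters Abca1 and Abcg1 and the apolipoprotein gene Apoe were called lower in both conditions, with log2 fold changes for Abca1 of -3.24 ± 0.32 with OHT and -4.69 ± 0.38 untreated (edgeR adjusted p = 0.000567 and 0.000308). Apoe was at 141 CPM in OHT-treated FLICs, against 1342 and 2712 CPM in OHT-treated ES cells, and at 79.3 CPM in untreated FLICs, against 1443 and 1515 CPM in untreated ES cells. Soat1, which esterifies cholesterol, was called higher, at 127 CPM in OHT-treated FLICs, against 16.4 and 20.3 CPM in OHT-treated ES cells, and at 141 CPM in untreated FLICs, against 20.4 and 21.6 CPM in untreated ES cells. Ch25h, the cholesterol hydroxylase gene, was without a count in untreated ES cells and at 0.803 CPM in untreated FLICs, at least 18.1-fold higher. Cyp27a1, another sterol hydroxylase, had no count in FLICs and at most 0.686 CPM in ES cells, at least 8.61-fold lower with OHT and at least 3.03-fold lower untreated. For OHT in ES cells, edgeR called 0 of the 50 genes tested in these 4 lists in either direction. At an unadjusted p of 0.05, 3 of the 50 were higher and 9 lower, beside 10.5% and 7.79% of all tested genes. With DESeq2, 1 of the 50 was called higher and none lower.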

How the data were processed

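The labels' protocols name the RNeasy Mini Kit for RNA and TruSeq Stranded Total RNA LT for libraries. Per the deposited table, the authors' values are whole, unnormalized counts for 22600 Ensembl genes in 6 libraries, with a length per gene. Per the submitters' processing notes, Salmon, DESeq2 and GRCm38 were used, without versions or roles; read assignment between similar or overlapping genes is not given in the sources used here. Total counts were 23534551 to 43965309; a count of 0 allows up to 3 counts, for counting error only. Symbols matched for 22509 genes. Some genes of the pathway are not reported here.

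Groups came from titles and treatment labels. Since the labels name no separate cultures, p-values reflect the spread between libraries, which may be technical. Counts were fitted with edgeR 4.0.16 in R 4.3.3 (filterByExpr, 15535 genes, TMM, quasi-likelihood, 1 mean per group, Benjamini-Hochberg over all tested genes, calls at 0.05); SE is the absolute log2 fold change over the square root of F. Common biological variation was 18.5%, with 2 residual degrees of freedom, both from ES cells. Comparisons with single FLICs libraries assume that these vary like ES cell libraries. For OHT in FLICs the values are described as a difference of log2(CPM + 1), at least 2-fold and a mean of at least 1 CPM. DESeq2 1.42.0, other scalings and filters, left-out libraries and a replicate block were alternatives. The procedure was tested on simulated data.

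Members and lists were chosen with earlier results of these data known. Values in every library were given for up to 6 called members per direction with the largest changes, the 5 smallest p where fewer than 3 were called, the 5 largest differences for OHT in FLICs, and 4 related pairs; up to 3 called genes were named per other list. Hmgcs1, Pmvk, Idi1 and others beyond this rule were named after their values were seen. Promoter sequences are from RefSeq (GRCm38.p6).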

Additional observations from a re-analysis of the deposited data

Results flagged for a closer look

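The median over the 31 genes had opposite signs with OHT in the 2 cell types. The median difference in log2(CPM + 1) was 0.27 in FLICs (1 library per condition), against -0.40 and -0.37 in the replicate 1 and replicate 2 libraries of ES cells, so every numbered pair of ES cell libraries went one way and the FLICs pair the other. FLICs minus the mean of the ES cell replicates was 0.652. This difference of medians was not tested. The gene-by-gene interaction in edgeR called 0 of the 31 genes, with a lowest adjusted p of 0.638. Of the 31 genes, 24 were higher in FLICs and lower in both ES cell pairs with OHT. The share of all genes with that pattern was not determined. Fasn had negative differences in the pairs of both cell types. Those of Scap were negative but close to 0, at -0.068 in FLICs and -0.01 and -0.096 in ES cells, where its groups overlapped.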

How the results depend on the processing

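In the comparisons of groups, medians over the 31 genes kept their sign under every alternative run. For OHT in ES cells the number called lower, 0 in edgeR, was 3 with DESeq2, 4 with the replicate number as a block in ES cells alone (1.37% of all genes lower and 4.95% higher), and 0 to 18 when single libraries were left out (20.3% of all genes lower where it was 18). The same number in 2 libraries of different groups is only a number, with 2 pairs; deviations of same-numbered libraries correlated at 0.437 over all genes. For FLICs against ES cells, untreated, leaving out single libraries gave 12 to 25 genes higher and 1 to 4 lower. With OHT, relative log expression, upper quartile and total count scaling called 2, 3 and 2 of the 31 genes lower. DESeq2 called 2 lower, and so did a filter of 5 CPM in 2 libraries. Fasn was among them each time. Over all tested genes these settings called 30.4%, 35%, 31.4%, 27.7% and 27.5% lower, in that order. Leaving out single libraries gave medians over the 31 genes of 1.75 to 1.86. For the difference in OHT response, leaving out single libraries gave medians over the 31 genes of 0.58 to 0.69. Leaving out an OHT-treated ES cell library takes the wider pair out of the estimate of spread; the cause of the other changes was not tested. Total counts moved the median of all genes for OHT in ES cells to 0.13 and upper quartile scaling moved it to -0.29 for FLICs with OHT; relative to it, the median of the 31 genes was -0.41 and 1.84, against -0.41 and 1.85 with TMM. No result changed sign with a call. Single FLICs libraries limit every statement on FLICs.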
